A study of Mus musculus with 6 samples.

Results

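The genes of the actin and tubulin cytoskeleton were taken from the transcript table of 6 single mouse brain cells by their symbols. A gene was a member where its transcripts were assigned to it alone and its symbol was that of an actin, actin-related protein, Arp2/3 complex subunit, thymosin, cofilin, profilin, capping protein, cyclase-associated protein, tropomyosin, numbered myosin light or heavy chain, alpha-, beta- or gamma-tubulin (with the gamma-tubulin complex) or one of the stathmins Stmn1 and Stmn4. This gave 36 of 6357 genes and 308 of 36659 transcripts, where a transcript is 1 cDNA molecule defined by its unique molecular identifier (UMI).

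The study amplified stored STRT/C1 cDNA (full-length cDNA made on a microfluidic chip) further and sequenced it with PacBio long reads. There were 2 cells each of vascular and leptomeningeal cells (VLMCs), of the immature oligodendrocyte stage Oligo1 and of the mature myelinating stage Oligo5. All 6 carry the strain label CD-1, the tissue label Brain and the stage label Embryo, no treatment is given, and no animal is named, so nothing says that the cells came from separate animals. The label Embryo is repeated as given, beside the study's description of Oligo5 as mature and myelinating, and was not checked. According to the paper, the single cells were from hippocampus and cortex. The cells named VLMCs in the study carry the label Oligodendrocyte progenitor cell, and 8 and 10 of 10 VLMC marker genes had transcripts in them, against 0 of 10 in each oligodendrocyte. Of 10 oligodendrocyte progenitor markers only Pdgfra was seen in VLMCs, with 5 transcripts in VLMC-1 (0.214%) and 3 in VLMC-2 (0.0640%). From the same list, Gpr17 and Bcan had 19 transcripts in Oligo1-1 (0.165%), Bcan had 3 in Oligo1-2 (0.0496%), and Oligo5 had none. The cDNA came from an earlier experiment, and each cell type is treated here as 1 sample, so its 2 cells are shown side by side and no test compares cell types. Intervals are exact 95% binomial intervals and cover counting error only.

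Actin assembles into filaments from globular monomers, and tubulin assembles into microtubules from alpha and beta subunits. Thymosin, profilin and cofilin act on the actin monomer pool, capping protein and tropomyosin act on the filament, and the Arp2/3 complex starts branches. In oligodendrocytes, actin is known for its part in the outgrowth and wrapping of the myelin sheath, and microtubules for the transport of mRNA and vesicles into processes. VLMCs are fibroblast-like cells of the vessel wall and the meninges.

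Several members are shown by their sequence first, since the isoforms described below turn on them. All were read from GENCODE M21 transcripts on GRCm38 (mm10) and are given from 5′ to 3′. The first pair is from Capzb, the beta subunit of capping protein, on the plus strand. Exon 9 is at chr4:139288861-139288973 and the coding part of exon 10, read when exon 9 is skipped, at chr4:139291003-139291090, and capitals mark the stop codon that each form uses.
Capzb exon 9: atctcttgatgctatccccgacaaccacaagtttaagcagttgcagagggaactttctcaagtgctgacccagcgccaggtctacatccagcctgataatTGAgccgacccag
Capzb exon 10: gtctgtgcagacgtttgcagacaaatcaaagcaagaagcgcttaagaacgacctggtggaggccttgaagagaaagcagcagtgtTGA

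The second pair is from Tpm1, a tropomyosin, on the minus strand. These alternative exons are each 76 bases long, and capitals mark the 33 positions at which they differ. The first, at chr9:67032466-67032541, was skipped in the 6 Tpm1 transcripts that aligned to the gene, and the second, at chr9:67031951-67032026, was included.
Tpm1 skipped exon: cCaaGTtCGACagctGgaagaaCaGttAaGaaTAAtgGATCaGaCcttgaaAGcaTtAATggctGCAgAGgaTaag
Tpm1 included exon: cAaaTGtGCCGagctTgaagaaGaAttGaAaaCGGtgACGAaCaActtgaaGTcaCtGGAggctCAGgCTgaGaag

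The third pair is from Actb, beta-actin, on the minus strand, and gives the 30 bases before the end sites at which its transcripts stopped. The proximal end window is at chr5:142903740-142903769 and the distal one at chr5:142903121-142903150. Capitals mark the polyadenylation signal, searched as AATAAA or ATTAAA on the transcript strand.
Actb proximal end: ccctttctttgacaaaacctaacttgcgca
Actb distal end: gaccAATAAAagtgcacaccttaccttaca

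The last sequences are an exon of Myl6, an essential myosin light chain (minus strand, chr10:128491720-128491764, stop codon in capitals), and the stretch of intron 7 of Arpc1a, a subunit of the Arp2/3 complex, in which part of its transcripts began (plus strand, chr5:145104594-145104697, bases at which a transcript began in capitals).
Myl6 exon: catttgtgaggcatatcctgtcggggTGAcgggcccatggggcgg
Arpc1a intron 7: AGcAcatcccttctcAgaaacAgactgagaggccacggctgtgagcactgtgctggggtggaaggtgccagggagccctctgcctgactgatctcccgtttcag

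The depth of the cells set what could be seen. The number of transcripts ran from 2338 in VLMC-1 to 11483 in Oligo1-1, and a count of 0, taken as under 3 counts, thus leaves room for a share of 0.128% in the former and 0.0261% in the latter. Of 10 oligodendrocyte markers 9 or 10 had transcripts in each oligodendrocyte, and 1, Trf, in VLMC-2, with 23 transcripts (0.491%). Of 8 neuron markers 6 had transcripts in Oligo5-2, 38 in all or 0.612% of the cell, and none had any in the other 5 cells. Of 6 astrocyte markers, Slc1a2 had 17 transcripts in Oligo5-2 (0.274%) and Slc1a3 had 21 in VLMC-2 (0.448%), and the other cells had 0 to 5 transcripts of the list. Of 5 endothelial markers, Cldn5 and Ly6c1 had 3 transcripts in Oligo5-1 (0.0509%), and the other cells had none. The part of these in the results was not tested. Oligo5-2 was the cell with the most such transcripts in oligodendrocytes. Values without it are given beside the called differences between Oligo1 and Oligo5 and some other results, but not beside every comparison.

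Cytoskeleton genes made up a small share of every cell. The VLMCs held 15 (0.642%, interval 0.360 to 1.06) and 36 such transcripts (0.768%, 0.538 to 1.06). For Oligo1, the first cell had 113 (0.984%, 0.812 to 1.18) but the second had 32 (0.530%, 0.362 to 0.747). The Oligo5 pair held 60 (1.02%, 0.778 to 1.31) and 52 (0.837%, 0.626 to 1.10). Both Oligo5 cells lay above both VLMCs, though with overlapping intervals, and Oligo1 overlapped the other cell types, with the lowest and the second highest share. Without Oligo5-2 the Oligo5 share was the 1.02% of the remaining cell. The means were 0.705% in VLMCs, 0.757% in Oligo1 and 0.928% in Oligo5, differences smaller than that between the 2 Oligo1 cells.

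A few genes gave a large part of this. Only 4 members, Tmsb4x, Actb, Tuba1a and Arpc1a, had 20 or more transcripts over the 6 cells, together 145 or 47.1% of the member transcripts. A further 14 had 5 to 19, 7 had 2 to 4, and 11 were seen once. Tmsb4x and Capzb were the only members with transcripts in all 6 cells.

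The 4 leading members were compared between cell types by a fixed rule. A gene was called where the shares in the cells of the cell types did not overlap and the mean shares differed at least 2-fold, among the 220 genes of the table with 20 or more transcripts. Tuba1a was the only member called between VLMCs and oligodendrocytes, higher in the latter, beside 30.5% of all genes tested in that direction, and no member was called higher in VLMCs (14.5% of all genes). Between the oligodendrocyte stages, Tuba1a and Arpc1a were called higher in Oligo1 (30.9% of all genes) and Tmsb4x was called higher in Oligo5 (15.0% of all genes). With such backgrounds, 1 or 2 of 4 members called is close to what all genes gave, and the size of each difference is therefore given by cell. None of these calls was made from UMIs read at least 2 times or from the transcripts with a read in the long run.

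Tmsb4x, thymosin beta 4, which binds actin monomers and holds them back from filaments, had the widest difference between the oligodendrocyte stages among these 4 genes. The Oligo1 cells had 5 transcripts (0.0435%) and 1 (0.0165%), and the Oligo5 cells had 19 each (0.322%, interval 0.194 to 0.503, and 0.306%, 0.184 to 0.477). The mean share was 10.5-fold higher in Oligo5, and the intervals of both Oligo5 cells lay above those of both Oligo1 cells, the highest of which reached 0.102%. VLMC-1 had 1 transcript (0.0428%), close to Oligo1-1, and VLMC-2 had 6 (0.128%), between the stages. The difference was 10.7-fold without Oligo5-2 and 19-fold without Oligo1-1.

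Actb, the main nonmuscle actin together with Actg1, was not called in either comparison. The VLMCs had 1 transcript (0.0428%) and 4 (0.0853%), Oligo1-1 had 15 (0.131%) and Oligo1-2 had none. The Oligo5 cells had 5 (0.0848%) and 12 (0.193%), the latter being the cell with neuron markers. The Oligo1 cells lay above and below both VLMCs and Oligo5-1, and the 0 in Oligo1-2 allows a share of up to 0.0496%, below the value in all cells but VLMC-1. The difference between the Oligo1 cells, 15 against 0, was larger than any difference in mean share of Actb between cell types. Actb was called higher in Oligo5 when Oligo1-1 or Oligo5-1 was left out, and not when Oligo5-2 was.

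Tuba1a, an alpha-tubulin that is prominent in developing neural cells, was highest in Oligo1. It had 14 transcripts in Oligo1-1 (0.122%, interval 0.0667 to 0.204) and 8 in Oligo1-2 (0.132%, 0.0572 to 0.261), against 5 in Oligo5-1 (0.0848%) and 2 in Oligo5-2 (0.0322%). The mean share was 2.17-fold higher in Oligo1, but the intervals of the stages overlapped, and the difference was 1.5-fold and no longer called without Oligo5-2. It was 3.95-fold without Oligo5-1. When UMIs that differ by 1 substitution, or also by a shift, were joined, the difference was 1.86- to 1.98-fold and not called. VLMC-2 had 1 transcript (0.0213%) and VLMC-1 none, which allows up to 0.128% and therefore does not place VLMC-1 below the oligodendrocytes at this depth. The 8.71-fold difference between the means of oligodendrocytes and VLMCs thus rested on VLMC-2, was 4.35-fold without VLMC-1, and could not be called without VLMC-2 or without Oligo1-1.

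Arpc1a had 15 transcripts in Oligo1-1 (0.131%) and 6 in Oligo1-2 (0.0993%), against 2 in Oligo5-1 (0.0339%) and 2 in Oligo5-2 (0.0322%). On average the share was 3.48-fold higher in Oligo1, with no overlap of the values but with overlap of the intervals, and 3.39-fold without Oligo5-2. VLMC-1 had 2 transcripts (0.0855%) and VLMC-2 had none, so the VLMCs lay to neither side of the oligodendrocytes. Without Oligo1-1 neither Tuba1a nor Arpc1a reached 20 transcripts, and neither was called.

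**Figure D1:**
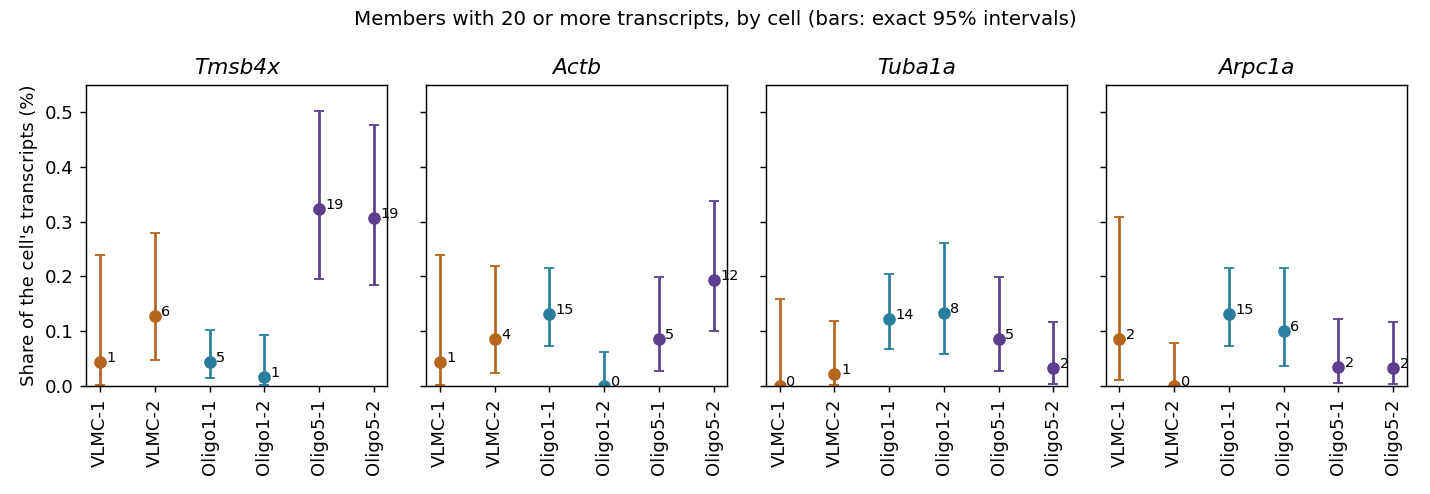
Share of the cell's transcripts (%, linear axis) of the 4 members with 20 or more transcripts, in each of the 6 cells, with the number of transcripts beside each point and exact 95% intervals as bars. Tmsb4x lies at 0.322% and 0.306% in the Oligo5 cells and at 0.128% or below in the others, while Actb differs as much between the Oligo1 cells (0.131% and 0) as between cell types.

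The other members are described by family, with no call, since each had under 20 transcripts. Among the proteins that act on actin monomers, Pfn2, a profilin known from neural tissue, had 10 transcripts in Oligo1-1 and 1 or 2 in each other oligodendrocyte, and Pfn1 had 4 in all (1 in Oligo1-2 and 3 in Oligo5-1). Pfn2 made up 14 of the 18 profilin 1 and 2 transcripts of oligodendrocytes (77.8%, interval 52.4 to 93.6), and VLMCs had neither. Cfl2, a cofilin, which severs filaments, had 9 transcripts in Oligo1-1 and 4 in Oligo5-1, and none in the other 4 cells. The Oligo1-1 transcripts of Cfl2 were 1179 to 1413 bases long in alignment and spliced, whereas the 4 of Oligo5-1 were single blocks of 371 to 432 bases. After UMIs alike but for 1 substitution or a shift of 1 base were joined, the latter came to 2.

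Capping protein, a dimer of an alpha and a beta subunit that blocks the fast-growing filament end, was seen in all cells. Capza2 had 7 transcripts in Oligo1-1, 3 in VLMC-1 and 2 in each other cell but Oligo5-1, which had none. Of the transcripts of VLMC-2 1 aligned outside the annotated gene. The 3 in VLMC-1 were joined into 1 by the UMI rule above. Capzb had 4 transcripts in Oligo1-1, 3 in VLMC-2 and 1 in each other cell. The alpha subunit gene Capza1 had no transcript in any cell.

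In the Arp2/3 complex, the paralogous subunits Arpc1a and Arpc1b were seen in different proportions in the cell types, but with overlapping intervals. All 9 Arpc1b transcripts were single blocks of 72 to 301 aligned bases, and 0 of 9 covered the first exon, against 10 of 27 for Arpc1a. Arpc1b had 1 transcript in VLMC-1, 4 in VLMC-2, 2 in each Oligo1 cell and none in Oligo5. Arpc1a made up 2 of 7 transcripts of this pair in VLMCs (28.6%, interval 3.67 to 71.0), 21 of 25 in Oligo1 (84.0%, 63.9 to 95.5) and 4 of 4 in Oligo5 (39.8 to 100). Within the VLMCs the cells went opposite ways, with 2 Arpc1a and 1 Arpc1b in VLMC-1 and 0 and 4 in VLMC-2. Arpc4 and Arpc5l had 4 transcripts each, all in oligodendrocytes, and Arpc2 had 2.

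Among the actin-related proteins, Actr10 and Actr1a are parts of dynactin, the partner of the motor dynein. Actr10 had 6 transcripts in Oligo1-1, 3 in Oligo5-1 and 2 in Oligo5-2, and 10 of these 11 covered the first exon. Actr1a had 3 in VLMC-1 and 2 each in Oligo1-1, Oligo1-2 and Oligo5-2. Joining UMIs that differ by 1 substitution left 2 of the 3 Actr1a transcripts of VLMC-1. Actr2, a core subunit of the Arp2/3 complex, had 1 transcript in Oligo1-1 and 4 in Oligo1-2. All 9 transcripts of Actr1a and all 5 of Actr2 were single blocks, and none covered a first exon.

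The myosin light chains had 11 transcripts in VLMC-2, more than any other family in that cell. Myl12a, a regulatory light chain of nonmuscle myosin, had 7 transcripts in VLMC-2 (0.149%, interval 0.0600 to 0.307) and 1 each in Oligo1-1 and Oligo5-2. VLMC-1 had none, which at its depth allows up to 0.128%, so the value belongs to 1 cell. Myl6 had 2 transcripts in each VLMC, 3 in Oligo1-1 and 2 in Oligo5-1. Myl9, a light chain of smooth muscle, and Tpm2, a tropomyosin of muscle and contractile cells, had 1 transcript each, both in VLMC-2. The only myosin heavy chain transcript, of Myh6 in Oligo1-1, was a single transcript with sequence outside the annotated exons.

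Beta-tubulins were sparse. Tubb4a, known as the main beta-tubulin of myelinating oligodendrocytes, had 2 transcripts in Oligo1-1, 1 in Oligo1-2, 1 in Oligo5-1, 3 in Oligo5-2 and none in VLMCs. Tubb5 had 2 each in VLMC-2 and Oligo5-1 and 1 in Oligo1-2. Tubb4a thus made up 7 of 11 beta-tubulin transcripts in oligodendrocytes (63.6%, interval 30.8 to 89.1) and 0 of 2 in VLMCs, an interval of 0 to 84.2% that does not separate them. Without Oligo5-2 the share in Oligo5 was 1 of 3. The stathmin Stmn4, which binds tubulin dimers, had 3 transcripts each in Oligo1-1 and Oligo5-1. Of these 6, 5 were single blocks and 0 covered the first exon. Joining UMIs that differ by 1 substitution left 2 of the 3 in Oligo1-1, and joining also by a shift left 1.

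**Figure D2:**
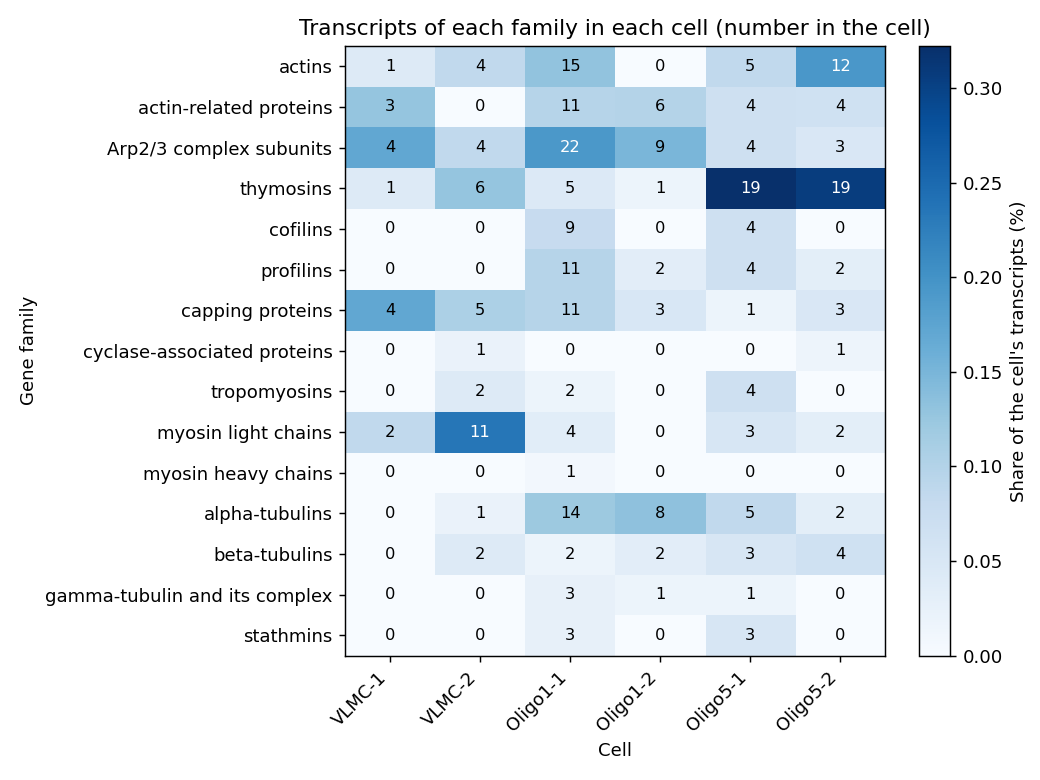
Number of transcripts of each gene family (rows) in each of the 6 cells (columns), coloured by the share of the cell's transcripts (%). Thymosins (19 transcripts in each Oligo5 cell) and, in VLMC-2, myosin light chains (11 transcripts) have the darkest fields, and cofilins, profilins and stathmins have none in VLMCs.

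In several families a single paralog was seen, in every cell that had a transcript of the family. Of the beta- and gamma-actin pair, all 37 transcripts were Actb, 5 in VLMCs and 32 in oligodendrocytes. All 51 of the thymosin pair Tmsb4x and Tmsb10 were Tmsb4x, all 30 alpha-tubulin transcripts were Tuba1a, all 13 of the cofilin pair were Cfl2 and all 6 of the stathmin pair were Stmn4. The authors kept only molecules that aligned uniquely, and some of the paralogs at 0 closely resemble other annotated genes. Of the 59 annotated coding genes that match the symbols but had no transcript, 21 (35.6%) had another annotated gene alike at 90% identity or more over at least 50% of the mRNA, against 6 of the 36 members (16.7%). Actg1 had 9 such genes, all pseudogenes, and Tuba1b had 12, of which 8 are pseudogenes. Tuba1a itself had 11 and was still seen, and Cfl1 and Stmn1 had none and were not. The search left out only genes of the same name, so a gene that overlaps at the same place could count. The 21 also include genes outside the paralog sets above, such as Myh1 and Myh7, so these shares do not measure what the filter removed. The part of the unique-alignment filter in the choice of paralog was not tested.

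Genes of the cytoskeleton beyond the symbols above were followed in 3 further lists. Of 44 further actin regulators 30 had transcripts and 4 had 20 or more. Gsn, gelsolin, which severs and caps filaments, was called higher in oligodendrocytes than in VLMCs, and higher in Oligo5 (24 and 17 transcripts, 0.407% and 0.274%) than in Oligo1 (13 and 6, 0.113% and 0.0993%), a 3.20-fold difference (3.83-fold without Oligo5-2). In the VLMCs Gsn had 0 and 2 transcripts (0 and 0.0427%). Marcks, which links actin to the membrane, was called higher in Oligo1 (61 and 37 transcripts, 0.531% and 0.612%) than in Oligo5 (0 and 2, or 0 and 0.0322%). The VLMCs had 8 and 4 transcripts of Marcks (0.342% and 0.0853%). Without Oligo5-2, Marcks was at least 11.2-fold higher in Oligo1, with 3 counts for the 0 of Oligo5-1. Cdc42 and Rdx were not called. Of 28 microtubule proteins 21 had transcripts and 3 had 20 or more. Kif1b, a kinesin, and Tppp were called higher in oligodendrocytes than in VLMCs, and Tppp, a tubulin polymerization protein of oligodendrocytes, and Sirt2, a deacetylase that acts on tubulin, higher in Oligo1 than in Oligo5. Kif1b had 0 and 1 transcripts in VLMCs (0 and 0.0213%) and 14 and 10 in Oligo1 (0.122% and 0.165%). In Oligo5 it had 15 and 10 (0.254% and 0.161%). Tppp had 16 and 15 transcripts in Oligo1 (0.139% and 0.248%) against 5 and 2 in Oligo5 (0.0848% and 0.0322%), and none in VLMCs. Sirt2 had 20 and 23 (0.174% and 0.381%) against 2 and 1 (0.0339% and 0.0161%), and 1 and 0 in VLMCs (0.0428% and 0). Both Tppp and Sirt2 were also called higher in Oligo1 without Oligo5-2. The calls against VLMCs of Gsn, Kif1b and Tppp were not made without VLMC-2, and that of Tppp not without VLMC-1. So 1 of 4 actin regulators and 2 of 3 microtubule proteins were called higher in oligodendrocytes than in VLMCs, beside 30.5% of all genes tested. The 1 of 4 and 2 of 3 called higher in Oligo1 stand beside 30.9%, and the 1 of 4 and 0 of 3 called higher in Oligo5 beside 15.0%. Of 6 intermediate filament and lamin genes 3 had transcripts, 1 each.

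The long reads also showed where transcripts began and ended. Of the 308 member transcripts 188 covered an annotated first exon (61.0%, interval 55.3 to 66.5). The 3 of Myl12b counted as not covering one, but the gene entry used for them may not be theirs. The VLMCs had 9 of 15 and 25 of 36, Oligo1-1 had 79 of 113 and Oligo5-2 had 45 of 52, against 5 of 32 for Oligo1-2 and 25 of 60 for Oligo5-1. Oligo1-2 (15.6%, 5.28 to 32.8) and Oligo5-1 (41.7%, 29.1 to 55.1) had the lowest shares, so isoform counts in them rest largely on partial transcripts. Without Oligo5-2 the share over the cells was 143 of 256 (55.9%). It also moved with the sequencing run, from 50.3% in transcripts read in the short run alone to 82.1% in those read in the long run alone. The runs were told apart here by aligned length, as described below.

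Actb transcripts ended at 2 main places. Of 37 transcripts, 20 ended at the proximal site (54.1%, interval 36.9 to 70.5), whose commonest position lies 625 bases before the annotated end of the gene, and 11 at the distal site (29.7%, 15.9 to 47.0), 6 bases before it. Oligo1-1 had 6 transcripts at each site, and Oligo5-1 had 2 at the proximal and 3 at the distal one. Of the VLMCs, VLMC-1 had its single transcript at the distal site, and VLMC-2 had 2 at the proximal and 1 at the distal site. Oligo5-2 had 10 of 12 at the proximal site (83.3%, 51.6 to 97.9) and none at the distal one (0 to 26.5%), the interval of the former overlapping that of Oligo1-1 (6 of 15, 16.3 to 67.7%). Oligo5-2 is the cell with neuron markers, and the part of this was not tested. Without it the distal site led, with 11 of 25 transcripts of Actb. The 6 remaining transcripts ended elsewhere, 2 of them close to the proximal site, and end positions chained within 20 bp in place of 5 bp gave 22 at that site.

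The bases around these sites differ. The distal window printed above holds AATAAA, starting 26 bases before the end, and the proximal window holds neither AATAAA nor ATTAAA in its 30 bases or in the 50 bases before the end. Of 58793 annotated protein-coding transcripts, 44.1% hold one of these motifs in their last 30 bases. The 20 annotated bases that follow the proximal end hold 16 A, with a run of at least 6. Oligo-dT can prime at such a stretch within an mRNA, and its part in the proximal site was not tested. Over all members, 222 of 308 transcripts ended within 30 bases of an annotated end, and of the 77 that did not and had 20 annotated bases after them, 28 had 12 or more A there. Of these 28, 20 were of Actb and 6 of Capza2. The starts of Actb were uniform in comparison, with 28 of 37 transcripts within a site 4 bases wide.

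**Figure D3:**
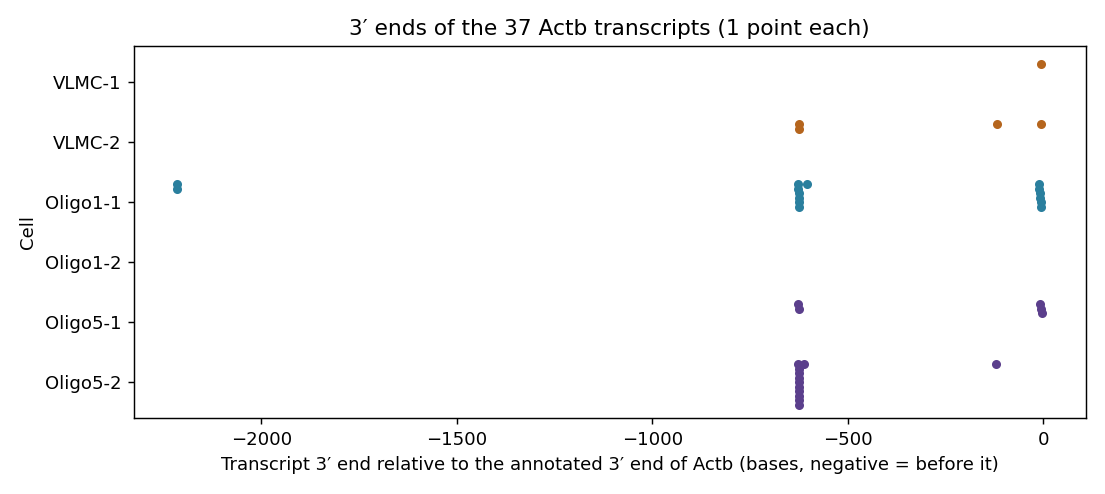
Position of the 3′ end of each of the 37 Actb transcripts (1 point each, in bases relative to the annotated 3′ end, linear axis) by cell. Ends fall at about -625 and -6 bases in Oligo1-1, while Oligo5-2 has 10 of 12 at the first and none at the second, and Oligo1-2 has no transcript.

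The other leading members each had 1 main end. Tmsb4x ended at 1 site in 48 of 51 transcripts and began at 1 site, 7 bases wide, in 46 of 51, with a median aligned length of 612 bases. Its few other ends were 2 in Oligo5-1 and 1 in Oligo5-2. Tuba1a ended at 1 site in 29 of 30 and began at 1 site in 19 of 30, and the 3 of 8 full starts in Oligo1-2 stand beside 12 of 14 in Oligo1-1. Arpc1a ended at 1 site in 26 of 27.

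The starts of Arpc1a fell apart in Oligo1. Of the 15 transcripts of Oligo1-1, 7 began in exon 1 and 7 in intron 7, and in Oligo1-2 1 of 6 began in each, the others beginning in exons 8 to 10. The 8 intronic starts (38.1% of the 21 Oligo1 transcripts, interval 18.1 to 61.6) lay within 22 bases at 5 positions, at chr5:145104594-145104615 in the stretch printed above, and every one ran unspliced across the intron's end into exon 8. They were 748 to 767 bases long in alignment. No annotated transcript starts within 20 bases of them, though an annotated retained-intron transcript spans this place from 321 bases upstream. None of the 4 Oligo5 transcripts (0 to 60.2%) and none of the 2 of VLMC-1 began there, the latter both beginning in exon 6. Of the 8, 7 were read in the short run alone and 1 in the long run alone, and joining alike UMIs left 5. The share in Oligo1 was 14.3% among transcripts with a read in the long run and 16.7% without Oligo1-1. The 8 carry 11 reads, and were chosen for description after their positions had been seen.

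Exon 9 of Capzb was skipped in VLMCs and included in oligodendrocytes. All 4 VLMC transcripts, 1 in VLMC-1 and 3 in VLMC-2, joined exon 8 to exon 10 (0 of 4 included, interval 0 to 60.2%). All 6 oligodendrocyte transcripts that reach it, 3 in Oligo1-1 and 1 in each other cell, included it (6 of 6, 54.1 to 100%). The counts themselves do not overlap, but they rest on 1 to 3 transcripts per cell, and the intervals of the cell types overlap between 54.1% and 60.2%. The 3 of VLMC-2 came to 2 when alike UMIs were joined. The exon is 113 bases long, of which 100 are coding, and holds its own stop codon, so the forms encode proteins that differ at the carboxyl end, as the stop codons printed above show. This exon was chosen for description after the transcripts had been seen.

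All 6 Tpm1 transcripts that aligned to the gene, 2 in Oligo1-1 and 4 in Oligo5-1, began in the internal first exon that ends at chr9:67043578, not in the upstream first exon. All 6 included the second of the alternative exons printed above and skipped the first (6 of 6, interval 54.1 to 100%), and the pair agree at 43 of 76 positions (56.6%). Both Oligo1-1 transcripts then went through the exon at chr9:67029664-67029742 into the last exon at chr9:67027892-67028167. The 4 of Oligo5-1 left the former 11 to 13 bases before its end and entered the latter 106 or 107 bases late. They had 709 to 713 aligned bases against 1232 and 1237 in Oligo1-1. That gap is wider than this junction accounts for, and where the other bases lie was not described. Joining alike UMIs left 1 transcript in Oligo1-1 and 3 in Oligo5-1. The only Tpm1 transcript of a VLMC aligned outside the gene and tells nothing of its exons, and the Tpm2 transcript of VLMC-2 included the exon at chr4:43519003-43519078 and skipped its alternative at chr4:43518644-43518719.

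Smaller isoform differences were also seen in Myl6 and Tubb4a, likewise chosen after the transcripts had been seen. Exon 6 of Myl6, 45 bases long and printed above, was included in 8 of 9 transcripts, all but 1 of the 3 in Oligo1-1, and holds 26 coding bases before its stop codon. Of the 7 Tubb4a transcripts 3, 1 in Oligo1-1 and 2 in Oligo5-2, ran from the first exon 737 to 819 bases into intron 1 and ended there. The other 4 began past the first exon, so no spliced transcript from the annotated start was read. Joining UMIs alike but for 1 substitution or shift, with both ends within 5 bp, left 2 of the 3 transcripts of Oligo5-2, the pair in intron 1 being joined. Over all members 24 of 306 transcripts on their gene (7.84%, 5.09 to 11.4) held over 20 bases outside the exons of RefSeq-linked transcripts, 15 of them in Oligo1-1. The 24 include all 3 of Myl12b, which were matched to a gene entry that reaches into the Myl12a gene and may not be theirs.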

How the data were processed

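Stored STRT/C1 cDNA of 6 cells was sequenced by PacBio in a short (P4/C2) and a long (P6/C4) run. Here each sequencing chip was assigned to a run by the median aligned length of its transcripts with 1 read. This was 601 to 638 bases in 5 chips (short) and 1751 to 1795 in 2 (long), the numbers of chips given in the paper. Concatemers were separated by the authors, who required a barcode on either side of the read and a poly-A stretch. Alignment to mm10 was done with GMAP (the submitters' processing notes name GSNAP). Molecules with more than 1 alignment were dropped, small gaps between blocks were closed, genes were assigned from RefSeq, and a shared UMI made several reads 1 transcript. The deposited values are counts, the reads merged into each transcript, not normalized, with block positions. Each cell was found by the barcode in its label.

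Here transcripts were counted per gene and cell. Shares are percent of the cell's transcripts, with exact Clopper-Pearson intervals at 95% (SciPy 1.17.1, pandas 2.3.3, Python 3.11.15), which cover counting error only since PCR copies and UMI errors remain. A cell type without transcripts was set to 3 counts over the group in a fold. Ends were chained within 5 bp and an exon was included where a block lay within 5 bp of both its ends. First exons are those of any RefSeq-linked GENCODE M21 transcript. Myl12b was matched to a gene entry that reaches into the Myl12a gene. Its 3 transcripts thus counted as missing the first exon, ending away from annotated ends and holding bases outside the exons. Near-identical genes were searched with BLAST 2.17.0. No animal is named for any cell, so each cell type counts as 1 sample and no p-value is given. Genes with 20 or more transcripts were named with the value in every cell, called genes of 3 fixed lists likewise, and the others by family. The members, lists and rules were chosen with earlier results of these data known. The chaining, UMI joining and call rule were tested on simulated data. The simulated counts varied by counting error only, so they do not show how often unchanged genes are called in cells that differ more. Transcripts assigned to overlapping genes (3 with a member) were left out, and 2 member transcripts that align outside their gene were counted but given no exons. Alternatives were UMIs read at least 2 times, reads, joined UMIs, either run alone, other minimums, folds and tolerances, and leaving out each cell.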

Additional observations from a re-analysis of the deposited data

How the results depend on the processing

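No paired analysis was possible because each cell type is 1 sample of 2 cells, no test was made, and the cell numbers name cells only. Of 318 values under alternative settings, 281 stayed within their intervals, within 1.5 times their count or, for a ratio, still called, and 37 did not. The 281 include the shares of Actb, Tmsb4x and Tuba1a among their paralogs, which could not move since the other paralogs had no transcript. A change of direction could show only in the few ratios of called members. None fell below 1, but ratios that rested on a count of 0 and gave no fold were left out. The calls of single members depended most on the setting. With UMIs read at least 2 times no member was called (0 higher in oligodendrocytes than in VLMCs, 0 higher in Oligo1 than in Oligo5 and 0 higher in Oligo5), the summed share in Oligo5 was 0.459%, Tubb4a made up 0% of the beta-tubulin transcripts of Oligo5 and 67.0% of transcripts covered a first exon. Runs were taken with every transcript that had a read in them, those read in both runs included. The long run then likewise gave 0, 0 and 0 calls, with 80.2% of transcripts covering a first exon, and the short run gave 0 higher in oligodendrocytes and 1 higher in Oligo1, with 53.9%. Reads in place of transcripts gave 2 members higher in oligodendrocytes. A minimum of 40 transcripts gave 0 higher in oligodendrocytes and 0 higher in Oligo1, and no minimum gave 3 members higher in VLMCs and 4 higher in Oligo1. With 3-fold as the limit, or with UMIs joined by any of the 3 rules (2 of them chosen after seeing the data), 1 member was called higher in Oligo1, since the ratio of Tuba1a fell to between 1.86 and 1.98 on joining.

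Leaving out single cells gave 0 to 1 members higher in oligodendrocytes (0 without VLMC-2 or without Oligo1-1), 0 to 2 higher in Oligo1 (0 without Oligo1-1, 1 without Oligo5-2) and 1 to 2 higher in Oligo5 (2 without Oligo1-1 or without Oligo5-1). The share of Tubb4a among the beta-tubulins of Oligo1 was 50% to 100%. The share of Arpc1a transcripts of Oligo1 that began in intron 7 was 14.3% in the long run and 16.7% without Oligo1-1. The main Actb end held 27.0% of transcripts when only identical positions were counted together, and 43.8% of transcripts covered the first exon of the annotated transcript with the most exons. Without VLMC-2 no ratio of Tuba1a could be given, as VLMC-1 had none. Depth limits members with few transcripts, and 71.4% of member transcripts rest on 1 read. Fewer transcripts reach the minimum of 20 when cells, runs or reads are left out, and the causes of the other changes were not tested.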
